A study of Mus musculus with 10 samples.

Results

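Genes of synaptic vesicle release were examined in the cerebellum of mice with and without Bmal1. The 35 members were taken by gene symbol from a list of vesicle, fusion, active zone and recycling genes, and all 35 were found among the 22046 genes of the expression table. No measured value entered the choice of the list, which was drawn up with earlier results of these data known.

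At a chemical synapse, transmitter is stored in vesicles that dock at the active zone of the nerve terminal. Syntaxin, SNAP25 and the vesicle protein synaptobrevin (VAMP) form the SNARE complex that fuses vesicle and plasma membrane, complexins bind the assembled complex, and synaptotagmins sense the calcium that triggers fusion. RIM, Munc13, Bassoon and Piccolo hold and prime vesicles at the active zone, synapsins tether the reserve pool, and dynamin, amphiphysin and synaptojanin retrieve membrane after fusion. In the cerebellum the most numerous terminals are those of granule cells, whose parallel fibres contact Purkinje cells, and Purkinje cells and molecular layer interneurons form the inhibitory ones.

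Knockout mice (Bmal1-/-) were compared with wild-type littermates (Bmal1+/+) from heterozygous crosses on a C57BL/6 background. Both genotypes had the same daily lighting, with lamps on for 12 hours and off for 12 hours. The knockout is not restricted to one cell type, so every cell of the body lacks the gene, and neither age, sex nor the hour of tissue collection is given in the sources used here. Bmal1 (symbol Arntl) is the transcription factor that, with CLOCK, drives the circadian clock by binding E-box motifs. Cerebellar lysate of each animal was divided into total RNA and ribosome footprints, the RNase-protected fragments of 28 to 34 nt under translating ribosomes. Values per library were at hand for knockouts 1 and 3 and wild types 2 and 3, in both kinds of library, so each genotype had 2 animals, and 2 further total RNA libraries of the series were not analysed here. RPKM is the read number scaled by a length and by library depth. In this table the scaling differs between genes in a way that no annotated length accounts for, so RPKM is compared only within a gene.

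Libraries held 25.6 M to 43.2 M recovered reads, and in total RNA both knockout libraries (38.9 M and 43.2 M) were deeper than both wild-type ones (25.6 M and 27.8 M), so depth and genotype cannot be told apart there. Arntl footprints were lower in both knockouts (124 and 107 RPKM) than in both wild types (258 and 295 RPKM), while its total RNA was higher (267 and 272 against 179 and 179 RPKM). The footprints thus went with the genotype labels and the total RNA against a loss of the transcript, and which part of the gene is deleted is not given in the sources used here. Cerebellar neuron markers were present in every library: none of 18 granule neuron or 17 Purkinje cell markers was at 0 in any library. Of 5 forebrain markers, 4 were at 0 in at least 1 library. The summed RPKM of marker lists below are compared only between libraries, and genes with large values weigh most in them. Granule neuron markers were mostly higher in knockout total RNA: 13 of 18 had a positive log2 fold change, against 46.7% of all genes. Their median was 0.18, and 3 were called, against 4.09% of all genes. The other 5 were below 0, Gabra6 among them at -0.04. Their summed RPKM was 16166 and 16008 in knockouts 1 and 3 against 13539 and 14831 in wild types 2 and 3, over all 18. Purkinje markers summed to 35477 and 38807 against 38029 and 43440.5 RPKM and inhibitory interneuron markers to 2691 and 2610.4 against 2605 and 2699. Wild type 2 stood apart in 19 brainstem and midbrain genes, which summed to 296 RPKM there, 106 in wild type 3 and 69.0 and 91.0 in the knockouts, with 12 of the 19 at 0 in at least 1 library. Slc17a6, 1 of the 19, did not set wild type 2 apart, at 75.8 and 74.4 RPKM in wild types 2 and 3 and 49.7 and 51.9 in knockouts 1 and 3. Choroid plexus markers differed most between animals (20995 and 24090.2 RPKM in knockouts 1 and 3 against 11144 and 2269 in wild types 2 and 3; 8 of 8 tested were above 0 and 2 called). Summed oligodendrocyte markers (2193 and 2121 against 3061 and 2514 RPKM) and microglia markers (269 and 284 against 361 and 380.1 RPKM) were lower in both knockouts. Gene by gene the oligodendrocyte list was divided, with 7 of 16 above 0 and 9 below (1 called). All 11 microglia markers tested were below 0 (2 called). The part these marker differences have in the results below was not tested, and in whole tissue fewer cells of a type and less RNA per cell cannot be told apart.

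In total RNA, 3 of the 35 members rose in the knockout and none fell: the calcium sensor genes Syt1 and Syt2 and the vesicle glycoprotein gene Sv2b. Called here means a Benjamini-Hochberg adjusted p under 0.05 in limma over all genes tested, on log2(RPKM + 1). The share called was 4.09% of the 12690 genes tested and 2.48% for those higher, and 3 of 35 is 8.57%. By limma-voom on recovered reads 10 members were called, 9 higher and 1 lower, against 13.1% of genes. The limma count was 0 without knockout 1 or without knockout 3, and 1 (Syt1) without wild type 2. It was also 0 when genes of low RPKM were kept, when the variance trend was left out, and when all 8 libraries shared a fit. Over all genes these fits called 26 of 17600, 350 of 12690 and 217 of 12690. All 35 members passed the filter of a mean RPKM of at least 1. In total RNA 24 members had a log2 fold change above 0, against 46.7% of genes. The 2 knockout libraries lay above both wild-type libraries in 22 members, against 24.7% of all genes tested, and below both in 4, against 30.3%. At an unadjusted p under 0.05 there were 14 members with higher and 2 with lower values, against backgrounds of 10.7% and 11.4%. The median log2 fold change, knockout minus wild type, was 0.14 over the members and -0.02 over all genes tested, in libraries in which the granule neuron markers had a median of 0.18.

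**Figure D1:**
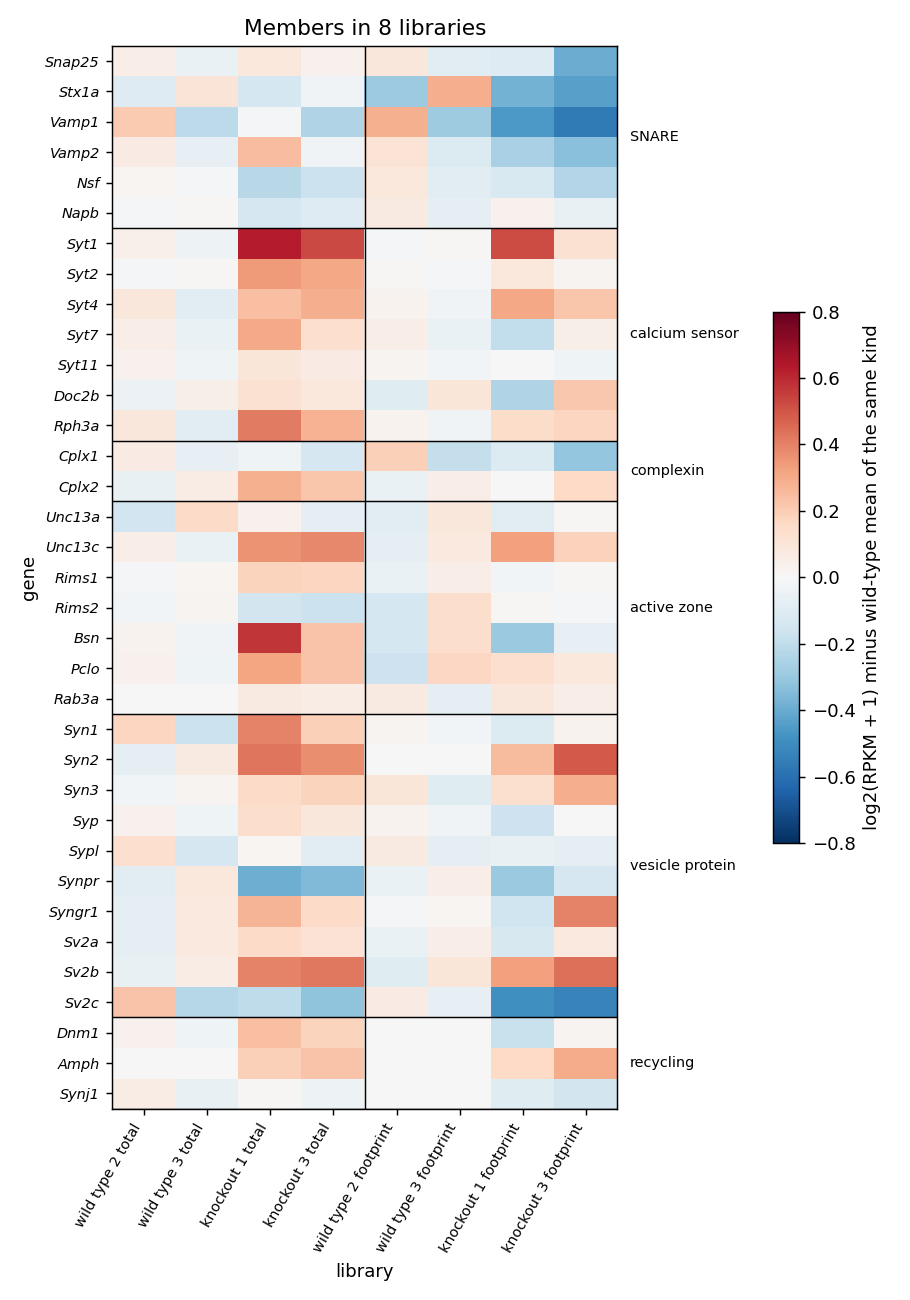
Values of the 35 members in 8 libraries, grouped by role, as log2(RPKM + 1) minus the wild-type mean of the same kind of library; columns are libraries, rows genes, red higher and blue lower. The total RNA columns of knockouts 1 and 3 are mostly red with Syt1 strongest, while Synpr and Sv2c are blue. The knockout footprint columns are mostly blue for the SNARE group.

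Synaptotagmins and related C2-domain proteins were all above 0 in total RNA, 7 of 7 (0.08 to 0.58, median 0.27). Syt1 (ENSMUSG00000035864; mm10 chromosome 10, 108497650 to 109010982) encodes synaptotagmin 1, the fast calcium sensor of vesicle fusion. Its total RNA was 3453 and 3252 RPKM in wild types 2 and 3 and 5175 and 4826 RPKM in knockouts 1 and 3. The genotypes did not overlap, and the means were 5000.3 ± 247 RPKM (SD, n = 2) in the knockout against 3353 ± 142 in the wild type, a 1.49-fold difference. The log2 fold change was 0.58 (SE 0.07, limma adjusted p = 0.0144), the largest of the 35. Syt2 (ENSMUSG00000026452; mm10 chromosome 1, 134646677 to 134762593), the paralog that serves as the fast sensor in many hindbrain and inhibitory terminals, was at 5403 and 5487 RPKM in wild types 2 and 3 and 6897 and 6745 RPKM in knockouts 1 and 3. Animals of a genotype differed by far less than the genotypes did, and the log2 fold change was 0.33 (SE 0.06, limma adjusted p = 0.0454). Without knockout 1 or knockout 3 the adjusted p was 0.112 and 0.0541 for Syt1 and 0.309 and 0.176 for Syt2, and without wild type 2 or wild type 3 it was 0.0274 and 0.0333 for Syt1 and 0.0904 and 0.0649 for Syt2. With quantile normalization Syt2 was at 0.09 (adjusted p = 0.320, limma).

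Rph3a, which encodes the Rab3 effector rabphilin, was at 1929.7 and 1697 RPKM in wild types 2 and 3 and 2416 and 2190.4 RPKM in knockouts 1 and 3. Its genotypes did not overlap, and it missed the threshold at 0.35 (SE 0.09, limma adjusted p = 0.105). Syt4, an atypical synaptotagmin of dense-core vesicles, was at 735 and 646 RPKM in wild types 2 and 3 and 814 and 842 RPKM in knockouts 1 and 3, also without overlap (log2 fold change 0.26, SE 0.09, limma adjusted p = 0.161). Syt7, the slow, high-affinity calcium sensor, was at 95.5 and 88.6 RPKM in wild types 2 and 3 and 114 and 101 RPKM in knockouts 1 and 3 (log2 fold change 0.22, SE 0.10, limma adjusted p = 0.264). Without knockout 1 the log2 fold change of Syt7 was 0.13, and without wild type 3 that of Syt4 was 0.17. Syt11 (0.08) and Doc2b (0.10), a sensor of spontaneous release, differed less. Only Syt1, Syt2 and Rph3a of these 7 passed in limma-voom on recovered reads, a test that weights genes by read depth (adjusted p = 1.61e-05, 0.00535 and 0.0131).

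**Figure D2:**
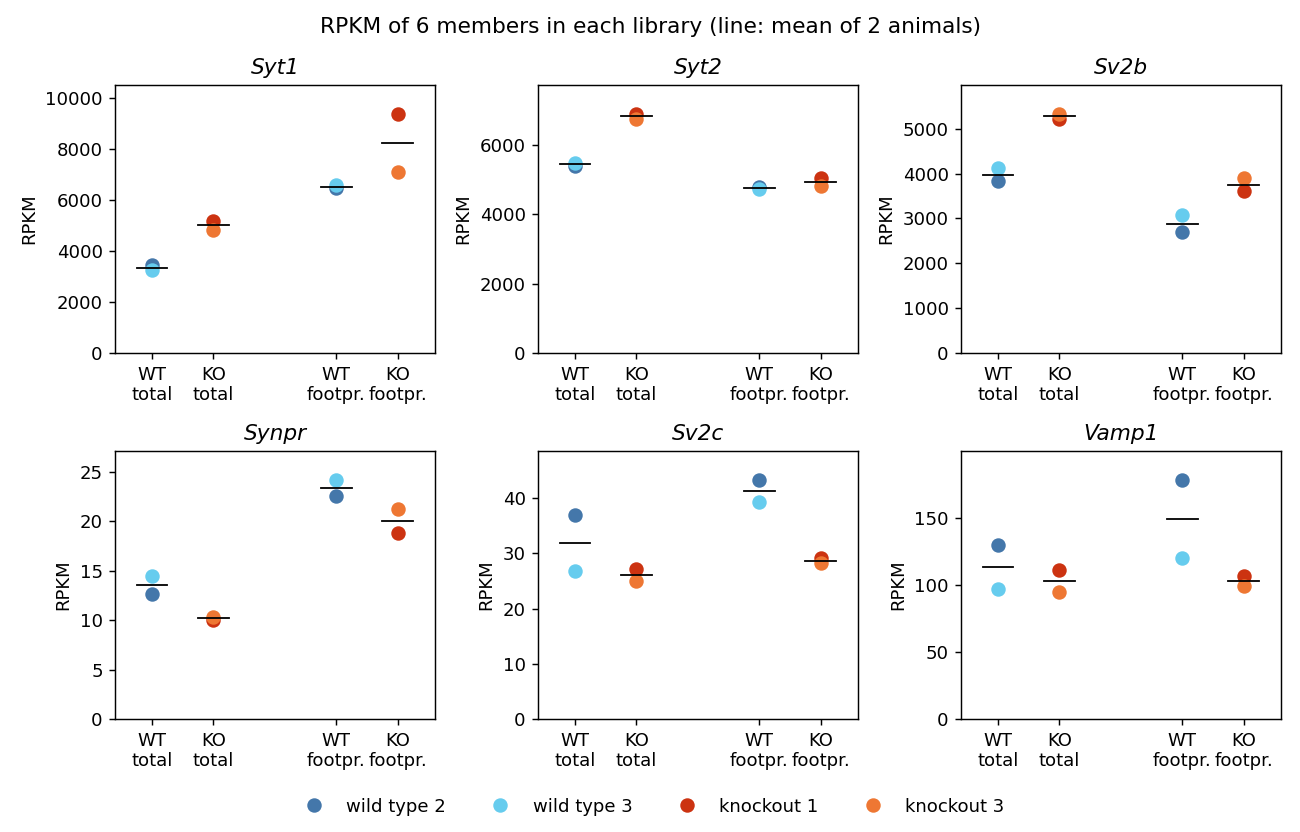
RPKM of 6 members in each library, points for animals and lines for the mean of 2, with wild type (WT) and knockout (KO) side by side for total RNA and footprints. Syt1, Syt2 and Sv2b total RNA is higher in both knockouts, Synpr is lower, and Vamp1 and Sv2c are highest in wild type 2.

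Among vesicle proteins, Sv2b (ENSMUSG00000053025; mm10 chromosome 7, 75114894 to 75309262), 1 of 3 SV2 glycoproteins of the vesicle membrane, was at 3824 and 4135 RPKM in wild types 2 and 3 and 5227 and 5335 RPKM in knockouts 1 and 3. The means were 5281 ± 76.6 RPKM (SD, n = 2) in the knockout against 3979 ± 219 in the wild type, and the log2 fold change was 0.41 (SE 0.07, limma adjusted p = 0.0355). Its call was lost without knockout 1, knockout 3 or wild type 2 (limma adjusted p = 0.203, 0.153 and 0.0750) and kept without wild type 3 (0.0340). With quantile normalization Sv2b was at 0.34 (limma adjusted p = 0.0651). Sv2a, the widely expressed form and the binding site of levetiracetam, had a log2 fold change of 0.13, and Sv2c was at 37.1 and 26.8 RPKM in wild types 2 and 3 and 27.2 and 25.0 RPKM in knockouts 1 and 3. Wild type 2 alone was high in Sv2c, and wild type 3 lay within the knockout range, so that the log2 fold change of -0.26 became -0.04 without wild type 2 and -0.49 without wild type 3. The differences among the SV2 genes were not tested.

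Synapsins, which hold vesicles on the actin skeleton, all had positive values. Syn2 was at 140.2 and 155 RPKM in wild types 2 and 3 and 198 and 190.4 RPKM in knockouts 1 and 3 (log2 fold change 0.40, SE 0.09, limma adjusted p = 0.0698; limma-voom adjusted p = 0.00230). Syn1 was at 426 and 336 RPKM in wild types 2 and 3 and 498 and 432 RPKM in knockouts 1 and 3, knockout 3 lying just above wild type 2, for a log2 fold change of 0.29 (SE 0.13, limma adjusted p = 0.269). Without wild type 3 the Syn1 value was 0.12 and without wild type 2 it was 0.46. Syn3, the least abundant of the 3, had 0.17. Synpr, which encodes the synaptophysin relative synaptoporin, was at 12.7 and 14.4 RPKM in wild types 2 and 3 and 10.04 and 10.4 RPKM in knockouts 1 and 3. It had the most negative total RNA log2 fold change of the 35 at -0.37 (SE 0.11, limma adjusted p = 0.132) and was called lower by limma-voom (adjusted p = 0.00373). Syngr1, the tetraspan protein synaptogyrin 1, was at 4255 and 4724 RPKM in wild types 2 and 3 and 5403 and 4990.5 RPKM in knockouts 1 and 3 (log2 fold change 0.21, SE 0.08, limma adjusted p = 0.204). Without wild type 2 the Syngr1 value was 0.14. Syp, the gene of the standard terminal marker synaptophysin, had a log2 fold change of 0.12 and Sypl, its non-neuronal relative, of -0.03.

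Active zone genes were divided. Unc13c, the Munc13 isoform known for its expression in cerebellar granule cells, was at 293 and 272 RPKM in wild types 2 and 3 and 363 and 369 RPKM in knockouts 1 and 3. The genotypes lay apart, and the gene narrowly missed the threshold (log2 fold change 0.37, SE 0.08, limma adjusted p = 0.0636; limma-voom adjusted p = 0.00310). Its paralog Unc13a, the main priming factor of forebrain synapses, was at -0.02, and the difference between the paralogs was not tested. Bsn, the gene of the scaffold Bassoon, was at 626 and 599.9 RPKM in wild types 2 and 3 and 913 and 717 RPKM in knockouts 1 and 3. Knockout 1 was the highest by a wide margin there, and the log2 fold change of 0.40 (SE 0.12, limma adjusted p = 0.138) was 0.23 without it. Pclo, the gene of the partner scaffold Piccolo, was at 139 and 133 RPKM in wild types 2 and 3 and 169 and 159.8 RPKM in knockouts 1 and 3 (log2 fold change 0.27, SE 0.08, limma adjusted p = 0.142; limma-voom adjusted p = 0.0257). Rims1 was at 6843 and 7000.3 RPKM in wild types 2 and 3 and 7826 and 7790.0 RPKM in knockouts 1 and 3 (log2 fold change 0.17, SE 0.06, limma adjusted p = 0.170), and with quantile normalization its direction turned, to -0.26 (adjusted p = 0.0465, limma). Rims2 had -0.16 and Rab3a, the vesicle GTPase that binds RIM, 0.07.

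No gene of the core fusion machinery was called. Snap25 (0.06), Stx1a (-0.08), Vamp1 (-0.12) and Vamp2 (0.11) all had log2 fold changes smaller than their standard errors. Nsf, the ATPase that takes used SNARE complexes apart, was at 296 and 289 RPKM in wild types 2 and 3 and 250.5 and 259.9 RPKM in knockouts 1 and 3, lower in both knockouts (log2 fold change -0.20, SE 0.08, limma adjusted p = 0.210). Napb, its adaptor beta-SNAP, had -0.12. Of the complexins, Cplx2 was at 92.0 and 100.0 RPKM in wild types 2 and 3 and 117 and 112 RPKM in knockouts 1 and 3 (log2 fold change 0.25, SE 0.09, limma adjusted p = 0.179; limma-voom adjusted p = 0.0385), and Cplx1 was at -0.08. In the retrieval group, Dnm1, the neuronal dynamin that pinches off vesicles, was at 1379 and 1319 RPKM in wild types 2 and 3 and 1591 and 1529 RPKM in knockouts 1 and 3 (log2 fold change 0.21, SE 0.07, limma adjusted p = 0.162). Amph, the gene of the membrane-bending partner amphiphysin, was at 58.6 and 58.3 RPKM in wild types 2 and 3 and 66.9 and 68.5 RPKM in knockouts 1 and 3 (log2 fold change 0.21, SE 0.08, limma adjusted p = 0.222). Synj1, the lipid phosphatase that uncoats vesicles, was at -0.02.

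Because BMAL1 acts at E-boxes, the 250 bases before each annotated start were read from RefSeq promoter windows (GRCm38.p6, the assembly of mm10), which held 28 of the members in 40 windows. The letters CACGTG, the E-box, stood in 2 of the 40 (5.0%), against 6.02% of all 32851 windows on either strand. They were in Nsf and in 1 of 4 Sv2b starts, and not in the windows of Syt1 and Syt2. Shown 5′ to 3′ on the gene's strand are 1 window each for the 3 called members and for Nsf, with any CACGTG in capitals.
Syt1, chr10:109010976-109011225 (minus strand): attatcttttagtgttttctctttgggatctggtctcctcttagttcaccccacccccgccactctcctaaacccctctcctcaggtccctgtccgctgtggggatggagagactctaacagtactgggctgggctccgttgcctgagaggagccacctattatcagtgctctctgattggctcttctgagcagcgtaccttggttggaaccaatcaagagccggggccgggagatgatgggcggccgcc
Syt2, chr1:134646362-134646611 (plus strand): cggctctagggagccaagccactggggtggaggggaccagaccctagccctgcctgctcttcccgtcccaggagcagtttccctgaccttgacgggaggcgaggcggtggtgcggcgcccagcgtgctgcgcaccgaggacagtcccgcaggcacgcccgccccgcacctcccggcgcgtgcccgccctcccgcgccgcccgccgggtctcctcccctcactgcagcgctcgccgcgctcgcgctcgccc
Sv2b, chr7:75302610-75302859 (minus strand): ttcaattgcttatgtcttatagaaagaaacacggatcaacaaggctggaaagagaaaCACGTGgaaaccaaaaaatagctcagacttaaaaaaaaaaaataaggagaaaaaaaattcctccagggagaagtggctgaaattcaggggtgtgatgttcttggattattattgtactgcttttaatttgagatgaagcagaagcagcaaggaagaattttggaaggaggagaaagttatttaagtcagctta
Nsf, chr11:103954057-103954306 (minus strand): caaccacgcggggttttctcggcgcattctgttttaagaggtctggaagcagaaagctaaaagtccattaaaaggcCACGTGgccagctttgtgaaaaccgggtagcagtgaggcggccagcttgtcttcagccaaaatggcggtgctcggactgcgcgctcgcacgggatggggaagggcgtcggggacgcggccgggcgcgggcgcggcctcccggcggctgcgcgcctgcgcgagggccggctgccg
The Sv2b match begins 193 bases before an internal start of the gene, and the Nsf match 174 bases before its start. Sv2b had more and Nsf less total RNA in both knockouts, and Nsf was not called. Sequence outside these windows was not read, and whether BMAL1 binds at either match was not tested. The related letters CACGTT were in 2 member windows (Cplx1 and Unc13a, 5.0%, against 3.85%). AGGTCA, the core bound by ROR and REV-ERB receptors, was in 3 (Syt1, Syt2 and Syngr1, 7.5%, against 14.0%), and TTATGTAA, a D-box, was in none (against 0.819%). The GC box GGGCGG was in 22 (55.0%, against 32.7%). Each motif was counted on both strands and separately from the others. No window was read for Doc2b, Rims2, Snap25, Syn3, Syt4, Syt7 and Vamp2.

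Footprints count ribosomes on all copies of an mRNA. No member was called in them by limma (4 at an unadjusted p under 0.05, against 10.4% of genes) or by limma-voom, against 0.233% of 12447 genes by limma and 1.63% by limma-voom. The median of the members was -0.01, that of all genes -0.03, and 14 were above 0, against 44.8% of genes. The genotypes lay apart with the knockouts higher in 9 members, against 17.1% of genes, and lower in 8, against 22.6%.

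Sv2b footprints were 2689 and 3070.1 RPKM in the wild types and 3611 and 3898 RPKM in the knockouts, a log2 fold change of 0.38 (SE 0.11, limma adjusted p = 0.314) close to its total RNA value. Those of Syn2 were 215 and 217 RPKM in the wild types and 258 and 304 RPKM in the knockouts (log2 fold change 0.37, SE 0.13, limma adjusted p = 0.399), and those of Syt4 962 and 926 RPKM in the wild types and 1171 and 1100.4 RPKM in the knockouts (log2 fold change 0.27, SE 0.10, limma adjusted p = 0.450). In all 3 the knockouts lay above the wild types in both kinds of library. Syt1 footprints were 6474 and 6574 RPKM in the wild types and 9383 and 7108 RPKM in the knockouts, with knockout 1 the highest (log2 fold change 0.32, SE 0.15, limma adjusted p = 0.548). Without knockout 1 the Syt1 footprint value was 0.12, and without knockout 3 it was 0.52. Syt2 footprints were 4788 and 4715 RPKM in the wild types and 5043 and 4816 RPKM in the knockouts, a log2 fold change of only 0.05 (SE 0.09, limma adjusted p = 0.920) beside the rise in its total RNA. Unc13c was at 93.0 and 104 RPKM in the wild types and 123 and 112 RPKM in the knockouts (0.26) and Amph at 111 and 111 RPKM in the wild types and 124 and 136 RPKM in the knockouts (0.23).

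All 6 genes of the SNARE group, in which Nsf and Napb were counted, were below 0 in footprints (median -0.27). Of all genes 44.8% were above 0. Napb, at -0.01 (SE 0.13), was above 0 without wild type 2 (0.06) or without knockout 3 (0.04). Vamp1 and Sv2c were the lowest of the 35. Sv2c was at 43.4 and 39.4 RPKM in the wild types and 29.2 and 28.2 RPKM in the knockouts (log2 fold change -0.51, SE 0.13, limma adjusted p = 0.282), without overlap of the genotypes. Vamp1, the synaptobrevin of brainstem, spinal and deep cerebellar terminals, was at 178 and 120.1 RPKM in the wild types and 106 and 98.7 RPKM in the knockouts (log2 fold change -0.51, SE 0.21, limma adjusted p = 0.490). Wild type 2, the animal with the high brainstem genes, was the highest in Vamp1, and without it the log2 fold change was -0.23, against -0.79 without wild type 3. For Sv2c the corresponding values were -0.44 and -0.58. Vamp2, the main synaptobrevin of the brain, was at 46.4 and 39.7 RPKM in the wild types and 35.7 and 33.8 RPKM in the knockouts (log2 fold change -0.30, SE 0.14, limma adjusted p = 0.580). Without wild type 2 its value was -0.19. Snap25 had -0.25, and Stx1a, the sparsest SNARE gene with 168 reads in its lowest footprint library, -0.40. Without knockout 3 Snap25 was at -0.10, and Stx1a was at -0.12 without wild type 3 and -0.69 without wild type 2. Of the complexins, Cplx1 was at 173 and 132 RPKM in the wild types and 139.9 and 122 RPKM in the knockouts (log2 fold change -0.21, SE 0.17, limma adjusted p = 0.811), with knockout 1 inside the wild-type range, and its value was -0.02 without wild type 2 and -0.40 without wild type 3. The remaining members lay between -0.22 (Synpr) and 0.21 (Syn3).

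**Figure D3:**
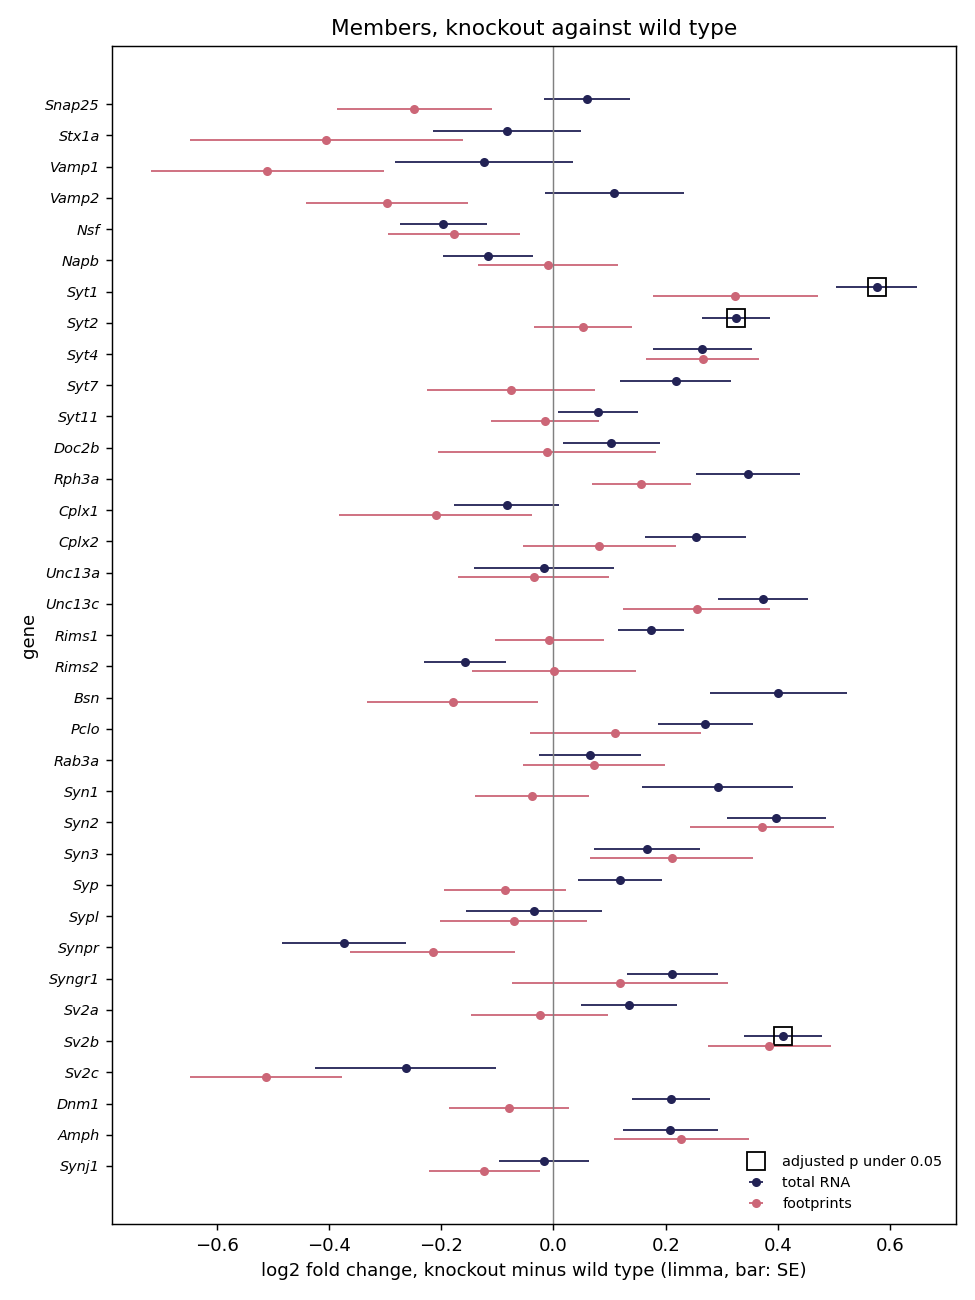
Log2 fold change of each member, knockout minus wild type, for total RNA (dark) and footprints (pink), with limma's standard error as bars and a square around the 3 called values (Syt1, Syt2 and Sv2b in total RNA). Most dark points lie right of 0 and the pink points scatter around 0. The pink points of the SNARE group at the top lie left of 0, that of Napb only just.

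Translational efficiency, the ratio of footprint to total RNA RPKM in the same animal, was lower in the knockout for most members without any single call. By limma's interaction of genotype and kind of library 0 of 35 were called (3 at an unadjusted p under 0.05, all lower, against 2.63% of genes), against 0.0165% of 12089 genes, and limma-voom called 0 against 0.00835%. The median difference was -0.13 log2 units over the members and -0.02 over all genes, and 27 members were below 0, against 53.4% of genes. With quantile normalization 22 were below 0 and 13 above, where 50.7% of genes were above. By limma-voom 24 were below and 11 above, where 52.1% of genes were above. In 18 members both knockout ratios were under both wild-type ratios, against 17.6% of genes, and in 2 (Rims2 and Synpr) they were above, against 14.2%. The total RNA values enter this ratio as its denominator, so it is not a measurement apart from the total RNA comparison.

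Syt2 had ratios of 0.886 and 0.859 in wild types 2 and 3 and 0.731 and 0.714 in knockouts 1 and 3. The animals of a genotype were close together and the genotypes apart, at -0.27 (SE 0.09, limma adjusted p = 0.997). With quantile normalization the Syt2 difference was -0.03. Dnm1 had ratios of 2.60 and 2.71 in wild types 2 and 3 and 1.99 and 2.38 in knockouts 1 and 3 (log2 fold change -0.29, SE 0.12, limma adjusted p = 0.997). Bsn had 0.457 and 0.579 in wild types 2 and 3 and 0.281 and 0.420 in knockouts 1 and 3 (log2 fold change -0.58, SE 0.21, limma adjusted p = 0.997), and without knockout 1 its difference was -0.29. In Vamp2 the ratios were 1.37 and 1.28 in wild types 2 and 3 and 0.923 and 1.06 in knockouts 1 and 3 (log2 fold change -0.40, SE 0.19, limma adjusted p = 0.997), in Syn1 4.29 and 5.26 in wild types 2 and 3 and 3.35 and 4.25 in knockouts 1 and 3 (log2 fold change -0.33, SE 0.18, limma adjusted p = 0.997), and in Syt7 0.447 and 0.446 in wild types 2 and 3 and 0.314 and 0.421 in knockouts 1 and 3 (log2 fold change -0.29, SE 0.18, limma adjusted p = 0.997). The ratios of Vamp1 were 1.37 and 1.24 in wild types 2 and 3 and 0.956 and 1.04 in knockouts 1 and 3 (log2 fold change -0.39, SE 0.30, limma adjusted p = 0.997). Among complexins, Cplx2 was at 0.456 and 0.453 in wild types 2 and 3 and 0.373 and 0.436 in knockouts 1 and 3 (log2 fold change -0.17, SE 0.15, limma adjusted p = 0.997). Leaving out knockout 1 brought Dnm1 to -0.16, Syn1 to -0.16, Syt7 to -0.08 and Cplx2 to -0.06, while without knockout 3 they were at -0.42, -0.50, -0.50 and -0.28. Without wild type 3 Syn1 was at -0.18. The ratio of Sv2b, whose RNA and footprints had similar log2 fold changes, was 0.703 and 0.743 in wild types 2 and 3 and 0.691 and 0.731 in knockouts 1 and 3 (-0.02).

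The ratio is free of the length in RPKM, so its values were set side by side between genes. Footprints lie on coding sequence, while total RNA reads can also come from untranslated parts, and from introns if these were counted. A difference in the ratio between genes is therefore not a measure of translation alone. In the wild type the members spanned a wide range, from 0.158 ± 0.0186 (SD, n = 2) for Rims2, at percentile 2.36 of 13880 genes, to 4.78 ± 0.690 for Syn1, at percentile 98.9. Rab3a (3.17 ± 0.238), Snap25 (3.09 ± 0.114), Syn3 (2.70 ± 0.328) and Dnm1 (2.66 ± 0.0725) followed Syn1, and the last 2 overlapped within their spread, as did Rab3a and Snap25. Next above Rims2 at the low end stood Rims1 (0.275 ± 0.00969), Syngr1 (0.318 ± 0.0188), Unc13c (0.350 ± 0.0459), Syt7 (0.447 ± 0.000919), Cplx2 (0.455 ± 0.00269) and Bsn (0.518 ± 0.0863). Paralogs with the same job could lie far apart, as Cplx1 (1.58 ± 0.198) and Cplx2 did. So did Syt1 (1.95 ± 0.104) and Syt2 (0.873 ± 0.0189), and Sv2a (1.44 ± 0.0348) and Sv2b (0.723 ± 0.0278). The coding share of exon length was 18.36% in Cplx1 and 8.16% in Cplx2, and 48.02% in Sv2a and 24.45% in Sv2b. In Syt1 and Syt2 it was 15.15% and 16.58%. The part of coding share in these differences was not tested.

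By role, the median wild-type ratio was 1.89 for 3 recycling genes, 1.54 for 10 vesicle proteins and 1.504 for 6 SNARE group genes. It was 1.08 for the 7 C2-domain sensors and 0.518 for the 7 active zone genes. The active zone genes ranged from Rims2 to Rab3a, with Unc13a (0.745 ± 0.0467) and Pclo (0.854 ± 0.167) between them, at percentiles 36.0 and 43.0 of all genes. The order of the 35 was nearly the same in the knockout (Spearman rho 0.98 across the 35 genes, and 0.91 across 13880, both over means of 2 animals). Across the 35 the wild-type ratio had a rho of -0.15 with the coding share of exon length in GENCODE M21 and of -0.10 with gene span, and across 13866 genes these were 0.17 and -0.11. The members' median percentile among all genes was 69.4 and 71.5 in wild types 2 and 3 and 62.3 and 62.2 in knockouts 1 and 3. The number of members above the median of all genes hardly differed, at 23 and 23 in the wild types and 22 and 23 in the knockouts. Total RNA is the denominator of these values too.

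**Figure D4:**
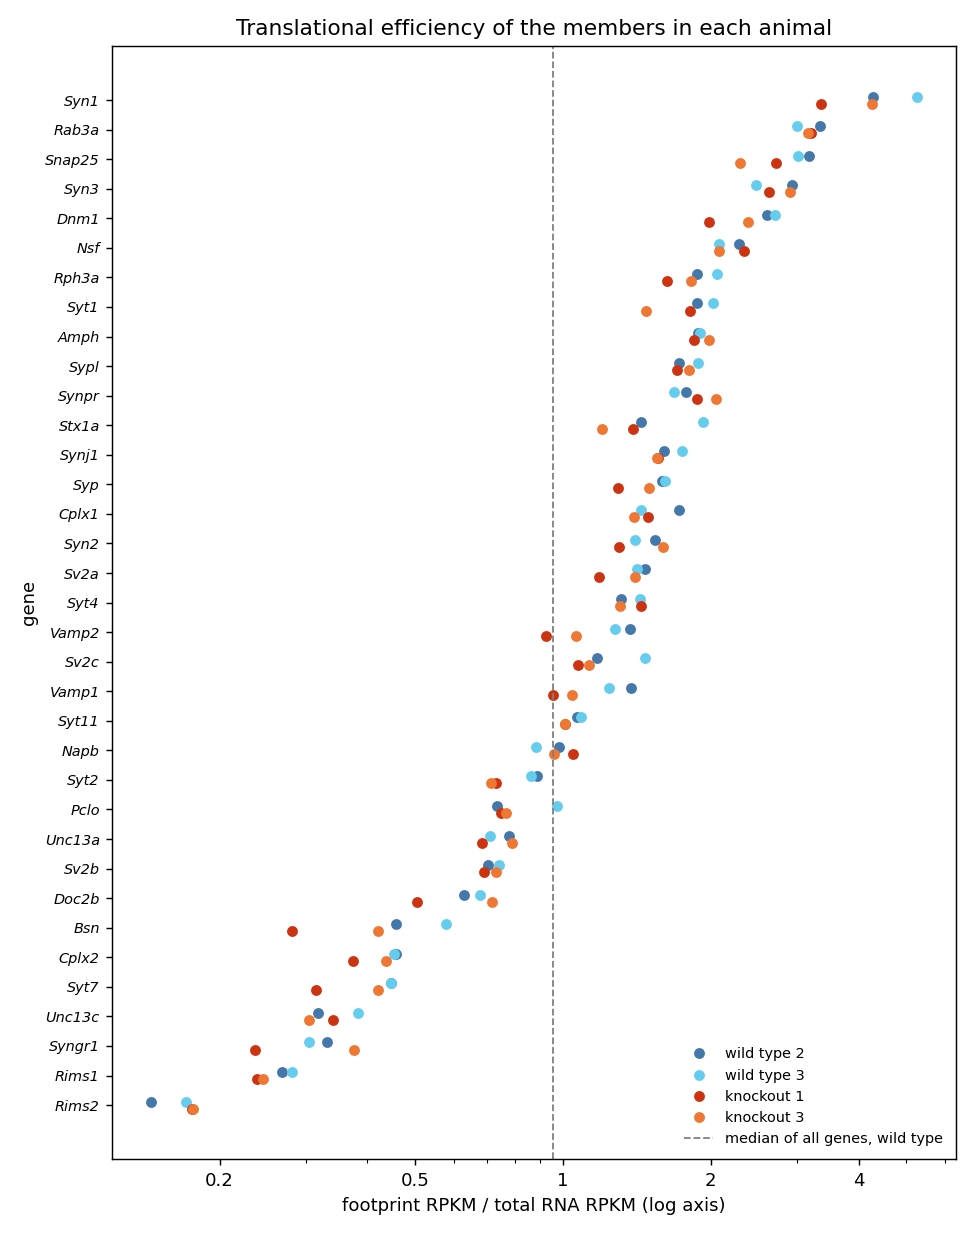
Ratio of footprint to total RNA RPKM of the 35 members in each of 4 animals on a log axis, ordered by the wild-type mean, with wild types in blue and knockouts in red and orange. The dashed line marks the wild-type median of all genes, and the members run from Rims2 near 0.2 to Syn1 above 4, with the knockout points more often left of the wild-type points.

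Levels of different members were compared per length, as recovered total RNA reads per kilobase of GENCODE M21 exons and per M recovered reads, since RPKM could not be. Whether intronic reads were counted is not given in the sources used here, so these levels are approximate. Snap25 led at 304 ± 19.0 (SD, n = 2 wild types), followed by Cplx1 (169 ± 12.8), Dnm1 (161 ± 6.79) and Syp (159.8 ± 7.65), the last 3 of which did not differ beyond their spread. Syt2 (101 ± 0.0134) was more abundant than Syt1 (56.7 ± 3.02) in both wild types. In knockouts 1 and 3 Syt1 was at 86.0 and 80.4 and Syt2 at 126 and 124, so their order was unchanged in these 4 libraries. Unc13c (46.0 ± 2.94) exceeded Unc13a (16.6 ± 2.37). Stx1a (1.94 ± 0.217) and Syn3 (0.700 ± 0.00943) were lowest, with 122 and 218 reads in their shallowest total RNA library. Syn3 shares 1733 exonic bases with Timp3 on the other strand and Unc13a 495 with Colgalt1, and their values are uncertain where counting ignored strand.

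Beyond the 35, a list of 103 other genes of vesicle release and recycling held 101 that were tested in total RNA, of which 5 rose and 1 fell (5.94% called, against 4.09% of all genes), with a median log2 fold change of 0.04. None was called in footprints by limma (15 of 100 at an unadjusted p under 0.05, against 10.4% of all genes). The same held for translational efficiency (1 of 99, against 4.55%). Rims3, a short RIM isoform, was at 507 and 577 RPKM in wild types 2 and 3 and 1038 and 910.2 RPKM in knockouts 1 and 3 (log2 fold change 0.84, SE 0.10, limma adjusted p = 0.0135). Rab3c, a close relative of Rab3a, was at 178 and 179.7 RPKM in wild types 2 and 3 and 261 and 254 RPKM in knockouts 1 and 3 (log2 fold change 0.52, SE 0.08, limma adjusted p = 0.0236). Syt13 (log2 fold change 0.47, SE 0.09, limma adjusted p = 0.0454), a synaptotagmin without calcium binding, and Ston2 (log2 fold change 0.41, SE 0.08, limma adjusted p = 0.0491), the endocytic adaptor that sorts synaptotagmin, rose as well. Slc17a6, the vesicular glutamate transporter VGLUT2, fell from 75.8 and 74.4 to 49.7 and 51.9 RPKM (log2 fold change -0.55, SE 0.09, limma adjusted p = 0.0277). It is also 1 of the 19 brainstem and midbrain genes above. In the 3 genes given by library the genotypes lay apart.

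By subgroup, 2 of 24 other active zone genes rose (Rims3 and Rab3c), 1 of 12 other C2-domain genes (Syt13) and 1 of 29 other recycling genes (Ston2). Among other vesicle genes Slc17a6 fell, and none of 17 SNARE partners was called (5 at an unadjusted p under 0.05, against 22.1% of all genes). Without knockout 1 the limma adjusted p was 0.0704 for Rims3, 0.172 for Rab3c, 0.265 for Syt13, 0.213 for Ston2 and 0.199 for Slc17a6, so that all 5 lost their call. Of these 5, only Rims3 kept it without knockout 3 (0.0323) and without wild type 2 (0.0372), and all but Ston2 (0.0848) kept it without wild type 3. All 5 lost it when genes of low RPKM were kept (limma adjusted p = 0.0937 for Rims3, 0.0703 for Rab3c, 0.153 for Syt13, 0.111 for Ston2 and 0.0822 for Slc17a6). Ston2 lost it as well with a pseudocount of 0.1 (0.0529) and with quantile normalization (0.0587). Leaving out the variance trend ended the calls of Rab3c (0.0520), Syt13 (0.0949) and Ston2 (0.0931), and fitting all 8 libraries together those of Slc17a6 (0.0987), Syt13 (0.0943) and Ston2 (0.245). All 5 passed in limma-voom.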

How the data were processed

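Total RNA and footprints were measured in 2 knockout and 2 wild-type cerebella. The tools listed are Cufflinks, STAR and Bowtie, and the build mm10, per the submitters' processing notes, and versions and settings are not given in the sources used here. The values in the authors' tables are RPKM per library and, as a ratio, footprint over total RNA RPKM per animal, per the file headers; 140 of 140 member ratios matched the RPKM within 2%. Whole reads were recovered for 13880 genes from the steps between low values and the mean read count column deposited by the authors. Of 408 low values, 100.0% fell within 0.1 of a whole number. Depth was 25.6 M to 43.2 M reads a library. limma 3.58.1 in R 4.3.3 was run on log2(RPKM + 1), two-sided, keeping genes whose mean RPKM reached 1, its prior variance following the mean. Benjamini-Hochberg adjustment was over all genes tested. The code was also run on simulated reads with the same spread setting for all genes, which does not show what size of change these data can detect. Alternatives were a pseudocount of 0.1, no filter, quantile normalization, limma-voom, no trend, 1 joint fit, each animal left out and the animal as a block. The 2 libraries of an animal come from 1 lysate per the labels' protocols; their deviations correlated at 0.00 for knockouts and 0.26 for wild types over 12089 genes. Members and lists were chosen with earlier results of these data known. Full values are given for members called, with an unadjusted p under 0.05, or largest in their role, and other pathway genes are named where called, except that some results are not reported here. Gene positions are from GENCODE M21, whose span matched the table's for 33 of 35 members.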

Additional observations from a re-analysis of the deposited data

How the results depend on the processing

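The total RNA count of 3 called members stayed at 3 with a pseudocount of 0.1 and was 2 (Syt1 higher and Rims1 lower) with quantile normalization. It was 0 with no filter on low values, where 26 of 17600 genes were called (15 members at an unadjusted p under 0.05, against 17.2% of genes). It was 0 with no variance trend, where 350 of 12690 genes were called (10 at an unadjusted p under 0.05, against 21.05%). With all 8 libraries in 1 fit it was 0, where 217 of 12690 genes were called (12, against 13.53%). By limma-voom on recovered reads it was 10 (9 higher, 1 lower), where 13.1% of genes were called. With 1 animal left out it ranged from 0 to 2. The members' median log2 fold change in total RNA lay between 0.11 and 0.16 in every alternative. In footprints it lay between -0.082 (without knockout 3) and 0.019 (without knockout 1), and in translational efficiency between -0.177 (without knockout 3) and -0.09 (without wild type 3). The counts of 0 in footprints and translational efficiency were 0 in every alternative run, including the replicate block, which fits each animal as a block for its 2 libraries and changed no call (median -0.13). The knockout ratios' median percentile was 62.2 and, ranked only among genes that passed the filter in both kinds of library, 62.6. Rims1 in total RNA turned from 0.17 to -0.26 with quantile normalization (limma adjusted p = 0.0465). The cause of these changes was not tested. Between genotypes no paired analysis was run, because the labels name no pairing of knockout with wild-type animals. With 2 animals a genotype, differences of the size seen in most members could not be told from their spread.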

Other observations

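Genes that set the transmitter of a vesicle were not all called. Slc17a7, the vesicular glutamate transporter VGLUT1 of parallel fibres, was at 953 and 1053 RPKM in wild types 2 and 3 and 1476 and 1257 RPKM in knockouts 1 and 3 (log2 fold change 0.44, SE 0.10, limma adjusted p = 0.0769), and its footprints were 689.8 and 817 RPKM in the wild types and 895 and 1057 RPKM in the knockouts (0.37). Slc32a1, the vesicular GABA and glycine transporter, was at 552 and 551 RPKM in wild types 2 and 3 and 718 and 651 RPKM in knockouts 1 and 3 (log2 fold change 0.31, SE 0.08, limma adjusted p = 0.0995). Slc32a1 footprints were 2467 and 1869.6 RPKM in the wild types and 1997 and 2226 RPKM in the knockouts (-0.03), with the genotypes overlapping. Total RNA of both genes was higher in both knockouts, while Slc17a6, VGLUT2, was lower. Slc17a7 and Slc32a1 were chosen for their roles after their values were seen.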
